A study of Mus musculus with 12 samples.

Results

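The genes described here are 10 mouse genes that restrain the cell cycle or mark non-dividing cells, given as a list of names and looked up by Entrez identifier. They were the Cip/Kip inhibitors Cdkn1a and Cdkn1b, the INK4 inhibitors Cdkn2c and Cdkn2d, the pocket protein gene Rbl2, the antiproliferative genes Tob1 and Btg1, the cyclin G genes Ccng1 and Ccng2, and Gadd45a. All 10 were among the 17090 genes of the counts table, and all 10 passed the filter on low counts that left 12740 genes for testing. The samples were MTΔECad cells, mouse breast cancer cells in a mesenchymal state, sequenced 6 times while they were being converted to adipocytes, with 2 biological replicate libraries at each time from 2 independent experiments. The time points were 0 h, 6 h, day 3, day 5, day 7 and day 10. After overnight seeding, the cells received 200 ng/ml human recombinant BMP2 for 3 days, then BMP2 with 2 µM rosiglitazone, an agonist of the fat cell receptor PPARγ, for 4 days, and then rosiglitazone alone for another 3 days. All libraries came from the same line, no untreated library of a later day was analysed here, and whether the line is 1 clone is not given in the sources used here, so time in culture and the added agents cannot be told apart.

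Cells leave the cycle when cyclin-dependent kinases are held back. Cip/Kip proteins bind cyclin and kinase together, INK4 proteins bind CDK4 and CDK6 before a D-type cyclin can, and pocket proteins such as the Rbl2 product p130 sit on E2F factors and, in the DREAM complex, keep cell cycle genes silent in resting cells. BTG/Tob proteins recruit the CCR4-NOT deadenylase to messenger RNAs and slow growth, Ccng2 encodes an unusual cyclin linked to cell cycle arrest, and Ccng1, Cdkn1a and Gadd45a are well-known p53 targets. Cdkn1b, Ccng2, Rbl2, Btg1 and Gadd45a are also known targets of FoxO factors, which act when insulin signalling is low. Cultured fat cell precursors are known to lose cyclin expression and to raise Cip/Kip and INK4 inhibitors as they become adipocytes.

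The promoter windows of 4 members are printed here, from RefSeq on GRCm38.p6, because Cdkn1a and Ccng1, both p53 targets, ended on opposite sides of their starting level, while Btg1 and Tob1 rose together. RefSeq gave 12 windows for the 10 genes, each of 250 bases before and 50 bases after a transcription start. The first pair are the windows that held a p53 response element (capitals; 2 adjoining half-sites with at most 1 mismatch), a motif searched for after the Cdkn1a sequence had been seen. Cdkn1a lies on the plus strand of chr17:29090729-29091028 at the upstream of its 2 listed starts, and Ccng1 on the minus strand of chr11:40755237-40755536.
Cdkn1a: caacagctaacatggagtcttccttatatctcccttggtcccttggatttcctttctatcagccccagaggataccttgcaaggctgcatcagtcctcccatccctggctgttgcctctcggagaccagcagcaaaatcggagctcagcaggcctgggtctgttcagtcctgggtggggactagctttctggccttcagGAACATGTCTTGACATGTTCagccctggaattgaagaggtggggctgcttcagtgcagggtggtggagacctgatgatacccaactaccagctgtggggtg
Ccng1: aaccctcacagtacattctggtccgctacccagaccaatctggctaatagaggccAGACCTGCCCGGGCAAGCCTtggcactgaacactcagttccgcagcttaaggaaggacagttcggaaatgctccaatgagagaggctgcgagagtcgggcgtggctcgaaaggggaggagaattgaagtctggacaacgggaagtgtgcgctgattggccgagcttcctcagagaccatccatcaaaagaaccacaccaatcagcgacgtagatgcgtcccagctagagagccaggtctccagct
In the second pair, both from genes that climbed together, capitals mark the FoxO motif GTAAACA and the CCAAT box on either strand. Btg1 lies on the plus strand of chr10:96616751-96617050, with the FoxO letters as TGTTTAC, and Tob1 on the plus strand of chr11:94211204-94211503, where the capitals are CCAAT boxes alone.
Btg1: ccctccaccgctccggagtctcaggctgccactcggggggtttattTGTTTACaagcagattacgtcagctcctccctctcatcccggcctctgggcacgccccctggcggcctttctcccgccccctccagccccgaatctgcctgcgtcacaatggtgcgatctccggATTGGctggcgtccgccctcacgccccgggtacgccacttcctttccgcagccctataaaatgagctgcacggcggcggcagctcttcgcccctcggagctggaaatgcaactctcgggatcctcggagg
Tob1: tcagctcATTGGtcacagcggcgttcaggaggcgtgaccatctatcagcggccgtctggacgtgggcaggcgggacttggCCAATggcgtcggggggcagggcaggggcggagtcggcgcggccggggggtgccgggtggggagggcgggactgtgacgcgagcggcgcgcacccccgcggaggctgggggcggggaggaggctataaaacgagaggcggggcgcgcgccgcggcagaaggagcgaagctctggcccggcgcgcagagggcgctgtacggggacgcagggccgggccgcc
The p53 element occurred in 0.0883% of all 32851 RefSeq windows and in 2 of the members' 12. The FoxO letters were in 3.65% of all windows and, among the members, in the Btg1 window alone. CCAAT was in 37.4% of all windows and in 7 of 12. The cell cycle element TTTGAA (17.9% of windows) was in the Rbl2 window, the E-box CACGTG (7.15%) in 1 Cdkn2c window, and the GC-rich SMAD motif GGCGCC (11.9%) in those of Cdkn1b, Cdkn2c and Cdkn2d. Neither the CRE TGACGTCA (1.79%) nor a direct repeat of AGGTCA with 1 base between (0.0396%), the PPAR and RXR element, was in a member's window. Both strands were read for each motif, no match of a motif overlapped that of another motif in the members' windows, and a match is a description of letters only. The members' windows had a median GC content of 62.0% and a median of 21.5 CpG, against 52.7% and 7 over all windows.

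Library totals ran from 12820802 to 17570366 counts, and TMM scaling factors from 0.819 at day 10 to 1.15 at day 3. Replicates varied more than counting error, with a chi-square per degree of freedom between 4.27 at 0 h and 15.9 at day 3, and the biological coefficient of variation shared by all genes came to 0.0737. The labels were checked against marker genes. All 7 adipocyte markers were higher at day 10, where they summed to between 29609 and 31088 CPM (counts scaled to library size), against 44.9 to 49.6 CPM at 0 h. All 5 proliferation markers were lower at day 10, with 48.5 to 52.2 CPM against 2987 to 3025 CPM at 0 h, and Mki67, the Ki-67 antigen gene, averaged 9.97 ± 1.93 CPM at day 10 and 998 ± 14.0 CPM at 0 h (SD, n = 2 each). At day 3, before rosiglitazone, the proliferation markers summed to 117 to 135 CPM and the adipocyte markers to 357 to 423 CPM. Leukocyte markers summed to at most 8.47 CPM, endothelial markers to at most 3.98 CPM and muscle markers to at most 1.17 CPM in any library, with 2 counts in all for Ptprc, which defines leukocytes. Of the 6 mesenchymal markers 3 were higher and 3 lower at day 10. The epithelial markers split 2 higher (Epcam and Krt14) and 2 lower (Krt8 and Krt18) of 5 tested. Cdh1, the E-cadherin gene, was not called, with a mean of 0.402 CPM at day 10 and 0.560 CPM at 0 h. The name MTΔECad refers to E-cadherin, so the low Cdh1 level is not read here as a sign of cell state. In bulk RNA, fewer cells expressing a gene and less of its RNA per cell cannot be told apart.

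All 10 genes differed between time points, which was also true of 94.7% of all genes tested (edgeR's quasi-likelihood test, Benjamini-Hochberg adjusted p below 0.05). The direction and timing of their changes set them apart from each other. At day 10 against 0 h, 8 members were higher and 2 lower, where 42.8% of all genes tested were higher and 39.9% lower, and the members' median log2 fold change was 1.31, against 0.06 over all genes. At day 7 the split was again 8 and 2, with 41.7% of all genes higher and 39.4% lower. In both comparisons the call of Cdkn1b as higher was lost with library totals alone. At day 5 it was 7 higher and 2 lower, with 40.3% and 37.6% of all genes, and at day 3 it was 7 and 3, with 33.1% and 35.0%. At 6 h none was called in either direction by edgeR or by DESeq2. At that time 0.534% of all genes were higher and 0.212% lower than at 0 h, and 1 member, Gadd45a, had an unadjusted p under 0.05 (0.0211).

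**Figure D1:**
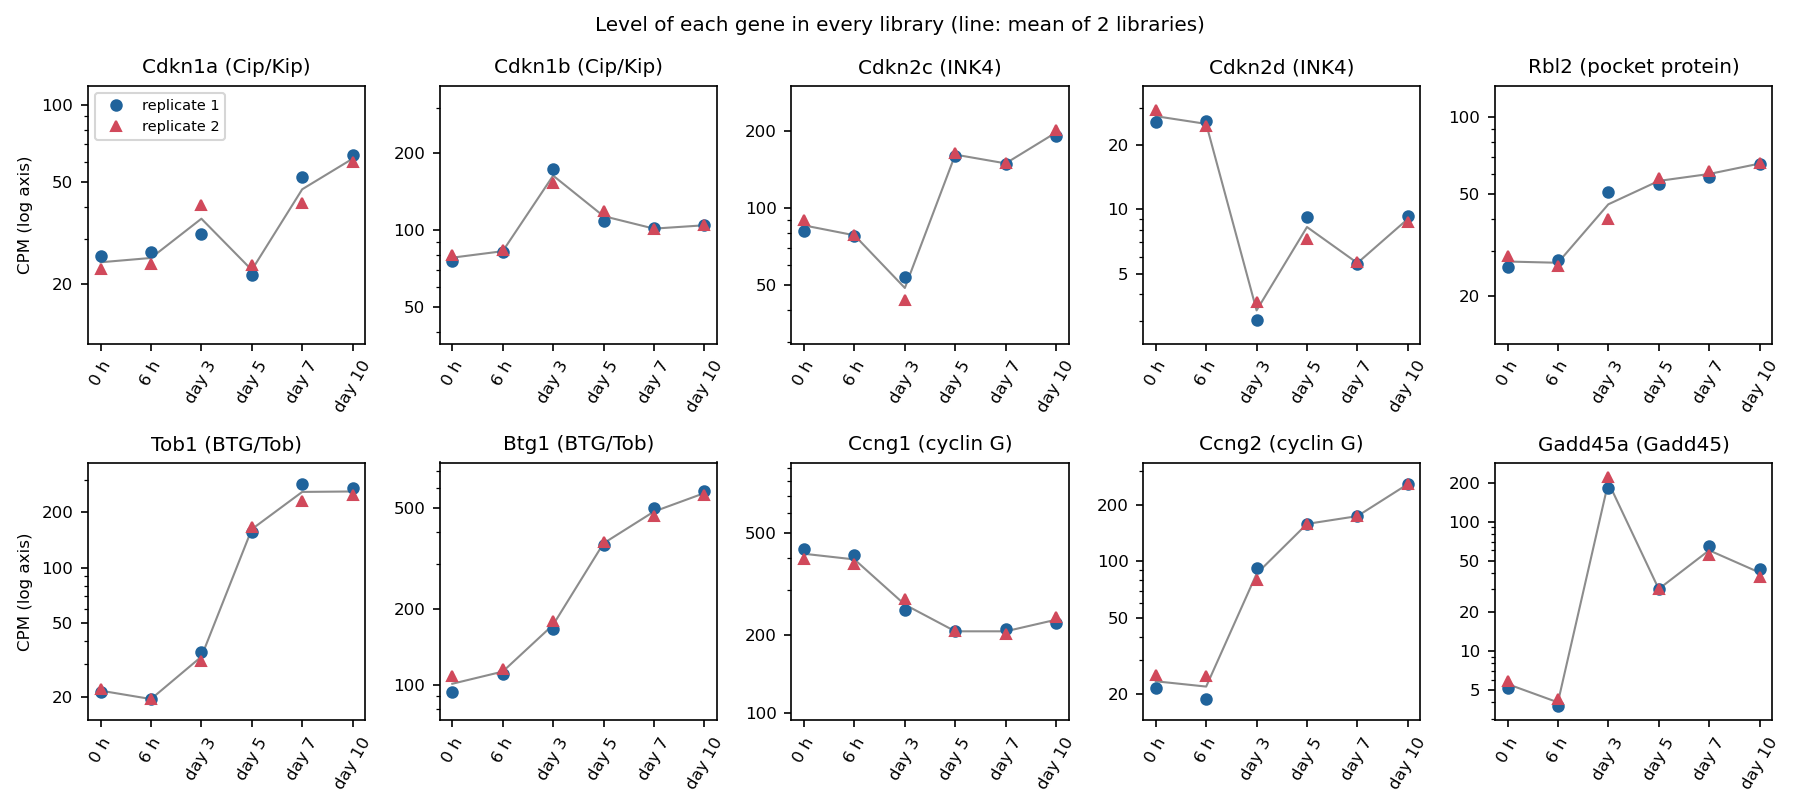
Level of each of the 10 genes in every library, in TMM-scaled CPM on a log axis, by time point; circles and triangles are replicates 1 and 2 and the line joins the means. Tob1, Btg1, Rbl2 and Ccng2 climbed, Ccng1 and Cdkn2d ended below their starting level, and Gadd45a and Cdkn1b had their highest libraries at day 3.

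Cdkn1a encodes p21, the Cip/Kip inhibitor known as the arm of p53 that stops the cycle. Its level was 25.6 and 22.9 CPM at 0 h, 26.5 and 23.9 CPM at 6 h, 31.4 and 40.5 CPM at day 3, 21.7 and 23.6 CPM at day 5, 52.2 and 41.4 CPM at day 7, and 63.6 and 59.5 CPM at day 10. The libraries of 0 h, 6 h and day 5 lay together and those of days 7 and 10 above all others, so that p21 mRNA rose, fell back and rose again. At day 3 it was higher than at 0 h, with a log2 fold change of 0.57 (SE 0.134, adjusted p = 0.00144 by edgeR's quasi-likelihood test), and 0.37 without day 3 replicate 2. At day 5 it was lower than at day 3 by 0.66 on the log2 scale (SE 0.134, edgeR adjusted p = 0.000412), and its difference from 0 h was not called (-0.10, edgeR adjusted p = 0.532). At day 7 it was higher than at day 5 by 1.04 (SE 0.132, edgeR adjusted p = 1.75e-05). By day 10 it stood at 2.54 times its 0 h level, a log2 fold change of 1.34 (SE 0.133). The Cdkn1a exons share 7.68% of their bases with a transcript on the opposite strand, and the strand setting of the counting is not given in the sources used here.

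Cdkn1b encodes p27, the Cip/Kip inhibitor of resting cells, which is controlled in large part by protein turnover. It had 76.1 and 80.4 CPM at 0 h, 82.1 and 83.7 CPM at 6 h, 173 and 154 CPM at day 3, 109 and 119 CPM at day 5, 102 and 101 CPM at day 7, and 105 and 105 CPM at day 10. The day 3 libraries were above all others and the 0 h libraries below all others. The log2 fold change over 0 h was 1.06 at day 3 (SE 0.0745, edgeR adjusted p = 1.76e-09) and 0.42 at day 10 (SE 0.0757, edgeR adjusted p = 7.36e-05). The later rise depended on the scaling. With library totals alone the change over 0 h was 0.15 at day 7 and 0.06 at day 10, and neither was called. Under that scaling the median of all genes at day 10 moved to -0.30. Relative to the median, Cdkn1b was 0.36 higher at day 10 under either scaling. A scaling shifts all genes by about the same amount, so that likeness was fixed in advance and does not bear on the call. Both Cip/Kip genes were thus above 0 h at day 3, but p27 mRNA was highest then and p21 mRNA at day 10. The third gene of the family, Cdkn1c, had 6 counts over all 12 libraries.

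Cdkn2c and Cdkn2d encode the INK4 inhibitors p18 and p19 and ended on opposite sides of 0 h. Cdkn2c had 81.1 and 89.9 CPM at 0 h, 77.8 and 78.7 CPM at 6 h, 53.9 and 43.6 CPM at day 3, 159 and 164 CPM at day 5, 148 and 150 CPM at day 7, and 192 and 202 CPM at day 10. Cdkn2d had 25.6 and 29.1 CPM at 0 h, 25.8 and 24.5 CPM at 6 h, 3.05 and 3.68 CPM at day 3, 9.26 and 7.28 CPM at day 5, 5.54 and 5.68 CPM at day 7, and 9.32 and 8.73 CPM at day 10. Both genes had their lowest libraries at day 3, and only Cdkn2c climbed above its 0 h libraries afterwards, while every Cdkn2d library from day 3 on was below every earlier one. At day 3 against 0 h, Cdkn2c fell by 0.81 (SE 0.0886, edgeR adjusted p = 4.36e-07) and Cdkn2d by 3.02 on the log2 scale (SE 0.157, edgeR adjusted p = 3.81e-11), which left Cdkn2d at 0.123 of its 0 h level. Between days 3 and 5, over which rosiglitazone was added, Cdkn2c rose by 1.73 (SE 0.0878, edgeR adjusted p = 2.66e-11) and Cdkn2d by 1.29 (SE 0.176, edgeR adjusted p = 6.11e-06). At day 10 against 0 h, Cdkn2c was 2.30 times as high (log2 fold change 1.20, SE 0.0851), and Cdkn2d stood at 0.329 of its 0 h level (log2 fold change -1.60, SE 0.140). The remaining INK4 genes, Cdkn2a and Cdkn2b, had 38 and 5 counts in all and were not tested.

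Rbl2 encodes p130, the pocket protein of quiescent cells and a part of DREAM. It had 26.1 and 28.6 CPM at 0 h, 27.7 and 26.4 CPM at 6 h, 51.3 and 40.2 CPM at day 3, 55.1 and 57.8 CPM at day 5, 58.3 and 61.8 CPM at day 7, and 65.6 and 66.2 CPM at day 10. From day 3 on every library lay above all 0 h and 6 h libraries, and the means of days 3, 5, 7 and 10 came in that order with no overlap between neighbours. Its log2 fold change over 0 h was 0.74 at day 3 (SE 0.107, edgeR adjusted p = 1.07e-05) and 1.27 at day 10 (SE 0.106, edgeR adjusted p = 6.87e-09). The smaller step between days 3 and 5 (0.30) was called with all libraries, but measured 0.14 without day 3 replicate 2, 0.49 without day 3 replicate 1 and 0.27 without day 5 replicate 2, and was not called without day 3 replicate 2 or day 5 replicate 2. Nor was it called with upper-quartile factors (0.23), library totals alone (0.17) or the 4 libraries of days 3 and 5 fitted alone (0.29). The later Rbl2 steps were not called even with all libraries. They were 0.09 from day 5 to day 7 (edgeR adjusted p = 0.510) and 0.13 from day 7 to day 10 (edgeR adjusted p = 0.350). Rbl2 shares 9.17% of its exon bases with Aktip and 11.8% with another annotated transcript, both on the opposite strand, and Aktip had 373 to 958 counts per library.

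The other 2 pocket protein genes moved apart from each other. Rb1, the retinoblastoma gene, averaged 66.3 ± 1.25 CPM at day 10 and 18.7 ± 1.86 CPM at 0 h (SD, n = 2 each), a log2 fold change of 1.82 (SE 0.128). Rbl1, whose product p107 is the pocket protein of cycling cells, averaged 10.5 ± 0.585 CPM at day 10 and 92.3 ± 1.80 CPM at 0 h, a change of -3.13 (SE 0.111). With Rbl2, 2 pocket protein genes thus rose and 1 fell at day 10, where 42.8% of all genes were higher and 39.9% lower. At day 3 the change over 0 h was already 1.06 for Rb1 and -2.78 for Rbl1.

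Tob1 and Btg1, antiproliferative genes of 1 family, had the 2 highest per-length levels at day 10. Tob1 had 21.1 and 21.9 CPM at 0 h, 19.3 and 19.5 CPM at 6 h, 34.8 and 31.0 CPM at day 3, 157 and 166 CPM at day 5, 286 and 229 CPM at day 7, and 270 and 247 CPM at day 10. Btg1 had 93.8 and 108 CPM at 0 h, 110 and 115 CPM at 6 h, 167 and 178 CPM at day 3, 357 and 368 CPM at day 5, 502 and 466 CPM at day 7, and 582 and 563 CPM at day 10. The libraries of days 7 and 10 overlapped for Tob1 and were separate for Btg1, and for both genes every library of day 5 and later exceeded every earlier one. At day 10 Tob1 was 12.0 times its 0 h level (log2 fold change 3.58, SE 0.107, edgeR adjusted p = 1.09e-14) and Btg1 5.68 times (2.51, SE 0.0810, edgeR adjusted p = 2.05e-14). Tob1 made its largest step between days 3 and 5, with a log2 fold change of 2.29 (edgeR adjusted p = 5.55e-12), and had reached 17.1% of its day 10 change in log2 units at day 3, 81.1% at day 5 and 99.8% at day 7. Btg1 had reached 30.9%, 73.7% and 90.3% at those days. No exon of either gene overlaps another annotated gene, and the pseudogenes Btg1-ps1 and Btg1-ps2, whose reads could be hard to part from those of Btg1, were not among the genes of the table.

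Among their relatives, Btg2 also rose. It averaged 41.1 ± 0.591 CPM at day 10 and 8.14 ± 0.816 CPM at 0 h (SD, n = 2 each; log2 fold change 2.33, SE 0.114). Tob2 rose less, with 58.1 ± 5.44 CPM at day 10 and 42.4 ± 3.24 CPM at 0 h (0.46, SE 0.0984), a rise that was not called with library totals alone (0.10). Btg3 fell, with 4.33 ± 0.163 CPM at day 10 and 13.8 ± 1.11 CPM at 0 h (-1.67, SE 0.183). With Tob1 and Btg1, the family thus held 4 genes called higher, Tob2 subject to that scaling, and 1 called lower. Of all genes tested, 42.8% were higher and 39.9% lower at day 10 against 0 h.

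Ccng1 and Ccng2 encode the cyclins G1 and G2, and crossed over the course. Ccng1 had 434 and 399 CPM at 0 h, 412 and 380 CPM at 6 h, 250 and 277 CPM at day 3, 207 and 208 CPM at day 5, 212 and 203 CPM at day 7, and 224 and 237 CPM at day 10. Ccng2 had 21.5 and 24.9 CPM at 0 h, 18.7 and 24.8 CPM at 6 h, 92.3 and 79.8 CPM at day 3, 158 and 158 CPM at day 5, 174 and 174 CPM at day 7, and 257 and 256 CPM at day 10. No library of day 3 or later reached the 0 h and 6 h range of either gene, with Ccng1 below it and Ccng2 above it. At day 10 against 0 h, Ccng2 was 11.0 times as high (log2 fold change 3.46, SE 0.111, edgeR adjusted p = 6.11e-14) and Ccng1 stood at 0.553 of its 0 h level (-0.85, SE 0.0755, edgeR adjusted p = 1.37e-08). Per length, Ccng2 had 103 ± 0.149 CPM per kb at day 10 and 9.31 ± 0.964 at 0 h (SD, n = 2 each). Ccng1 had 66.0 ± 2.59 CPM per kb at day 10 and 119 ± 7.09 at 0 h, where no other member was as high. At day 3, before rosiglitazone, the change in log2 units was 54.5% of the day 10 change for Ccng2 and 77.1% for Ccng1. Ccng1 went past its day 10 change, to 118% at days 5 and 7, though its step from day 7 to day 10 was not called.

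Gadd45a encodes a small stress-response protein that binds CDK1 and PCNA. It was the most variable member, with 5.21 and 5.87 CPM at 0 h, 3.77 and 4.23 CPM at 6 h, 182 and 220 CPM at day 3, 30.1 and 30.1 CPM at day 5, 64.5 and 55.4 CPM at day 7, and 43.2 and 37.5 CPM at day 10. The time points did not overlap: day 3 was highest, followed by days 7, 10 and 5, then 0 h and 6 h. At day 3 it was 36.1 times its 0 h level (log2 fold change 5.17, SE 0.134, edgeR adjusted p = 5.05e-15), the largest change of any member in these comparisons with 0 h. By day 5 it was lower than at day 3 by 2.74 (SE 0.108, edgeR adjusted p = 1.08e-12), yet at day 10 it was still 7.23 times the 0 h level (2.85, SE 0.140). Gadd45a had 58 to 3347 counts per library, against 3 to 15 for E230016M11Rik, which shares 19.1% of its exon bases on the opposite strand.

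The 3 Gadd45 genes followed 3 courses. Gadd45b was lower at day 10, with 3.68 ± 0.115 CPM, against 37.2 ± 1.36 CPM at 0 h (SD, n = 2 each; log2 fold change -3.34, SE 0.130). Gadd45g was higher, with 79.9 ± 7.38 CPM at day 10 and 30.6 ± 2.65 CPM at 0 h (1.38, SE 0.141), and had its highest mean at day 7. At day 3, where Gadd45a was highest, the log2 fold change over 0 h was -0.71 for Gadd45b and -0.11 for Gadd45g. Of the 7 tested relatives in all these families, 4 rose and 3 fell at day 10 against 0 h, with a median log2 fold change of 0.46. Of all genes tested, 42.8% were higher and 39.9% lower in that comparison, so the split of the relatives was close to that of all genes. With library totals alone, 3 rose and 3 fell, and the median was 0.10. It was 0.91 without 0 h replicate 1, 0.82 without day 10 replicate 1 and 0.92 without 0 h replicate 2, 6 h replicate 1 or day 3 replicate 2, settings in which Cdkn2a also passed the filter on low counts.

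**Figure D2:**
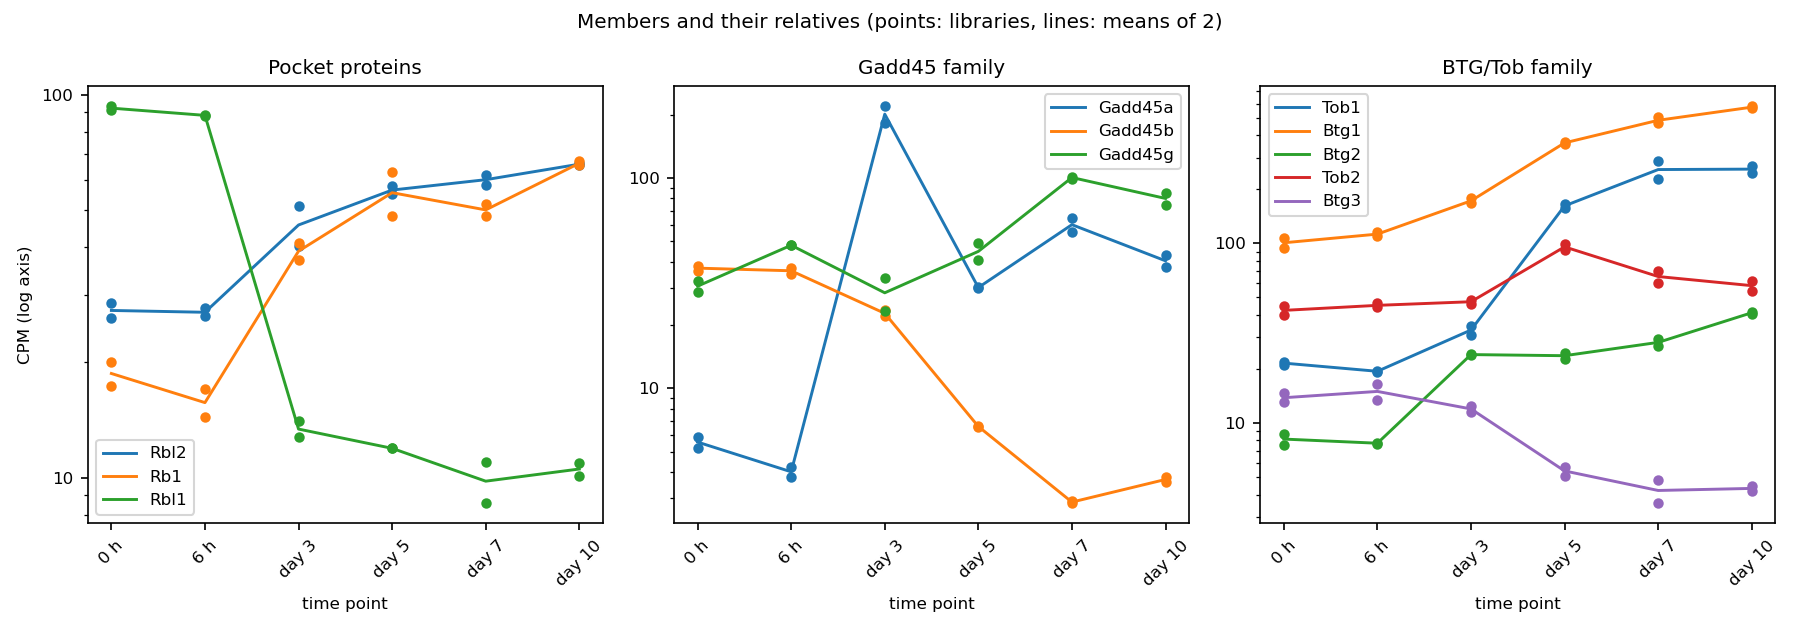
CPM on a log axis by time point for the pocket protein genes, the Gadd45 genes and the BTG/Tob genes; points are libraries and lines join the means of 2. Rbl2 and Rb1 climb while Rbl1 falls between 6 h and day 3, Gadd45a alone stands high at day 3, and Btg1, Tob1 and Btg2 climb while Btg3 falls.

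The changes are given next by successive steps. From 6 h to day 3, under BMP2 alone, 7 members rose and 3 fell, where 32.9% of all genes rose and 35.5% fell. The fallers were Cdkn2c, Cdkn2d and Ccng1, and Cdkn1a (log2 fold change 0.51) was not called without day 3 replicate 2 (0.32). Malat1, a nuclear noncoding RNA, took 0.520 to 0.564% of counts at 0 h, 0.524 to 0.561% at 6 h, 3.01 to 3.02% at day 3, 2.09 to 2.41% at day 5, 2.39 to 2.42% at day 7 and 2.43 to 2.49% at day 10, and its part in the members' changes was not tested. From day 3 to day 5, the risers were Cdkn2c, Cdkn2d, Rbl2, Tob1, Btg1 and Ccng2 and the fallers Cdkn1a, Cdkn1b, Ccng1 and Gadd45a, beside 34.0% of all genes that rose and 31.0% that fell. Among those, the call of the Rbl2 step depends on single libraries, on the scaling and on the libraries fitted, as given above. Cdkn1a, Cdkn1b and Gadd45a, each called higher at day 3 than at 0 h, were thus lower again at day 5.

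From day 5 to day 7, Cdkn1a, Tob1, Btg1 and Gadd45a rose, Cdkn2d fell and 5 members were not called, with 19.0% of all genes higher and 18.8% lower. The Cdkn2d change (-0.56) was not called without day 5 replicate 1 (-0.36), without day 7 replicate 1 (-0.54) or without day 7 replicate 2 (-0.58). With library totals alone, 8 members were called over this step, 4 in each direction. The share of all genes called also grew under that scaling, from 37.8% to 49.0%. From day 7 to day 10, in rosiglitazone alone, Ccng2 rose by 0.56 (SE 0.0954, edgeR adjusted p = 0.000407), Cdkn2d by 0.68, Cdkn2c by 0.40, Cdkn1a by 0.40 and Btg1 by 0.24, and Gadd45a fell by 0.57 (SE 0.108, edgeR adjusted p = 0.000857). Over that step 15.1% of all genes were higher and 13.2% lower. The Cdkn1a and Btg1 changes were not called without day 7 replicate 2 (0.24 and 0.19), without day 10 replicate 1 (0.35 and 0.22), without day 10 replicate 2 (0.44 and 0.27) or with library totals alone (0.27 and 0.12).

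**Figure D3:**
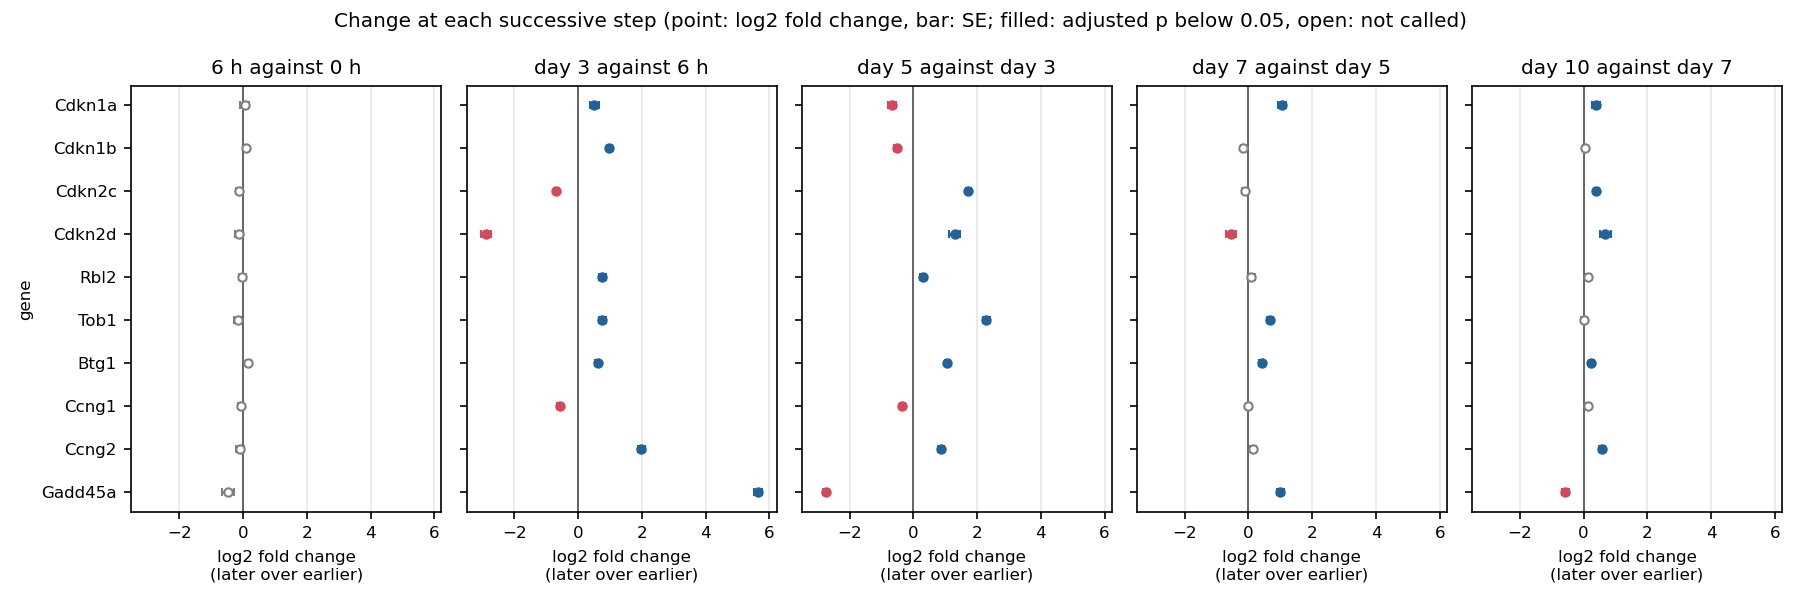
Log2 fold change (later over earlier, points) with its SE (bars) for each gene over the 5 successive steps; filled points had an adjusted p below 0.05, blue for higher and red for lower, and open grey points were not called. No point is filled at 6 h, and the widest spread, with Gadd45a at 5.64 and Cdkn2d at -2.90, is at day 3 against 6 h.

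Compared per length, the members changed places. At 0 h the order began with Ccng1, which made up 43.9% of the members' summed level of 272 CPM per kb, followed by Cdkn2c at 37.9 ± 2.77 and Cdkn1b at 32.5 ± 1.26 CPM per kb (SD, n = 2 each), and Gadd45a was last with 4.53 ± 0.381. At day 3 Gadd45a led with 164 ± 22.0 CPM per kb, or 37.1% of the sum, and Cdkn2d was last with 2.65 ± 0.354. At day 10 Btg1 (114 ± 2.71), Tob1 (113 ± 7.15) and Ccng2 (103 ± 0.149 CPM per kb) led, the first pair within their spread, and the members summed to 611 CPM per kb. Cdkn2d stayed last there, with 7.11 ± 0.327. Rbl2 kept a low rank, at place 8 or 9 of the 10 genes, at every time point.

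**Figure D4:**
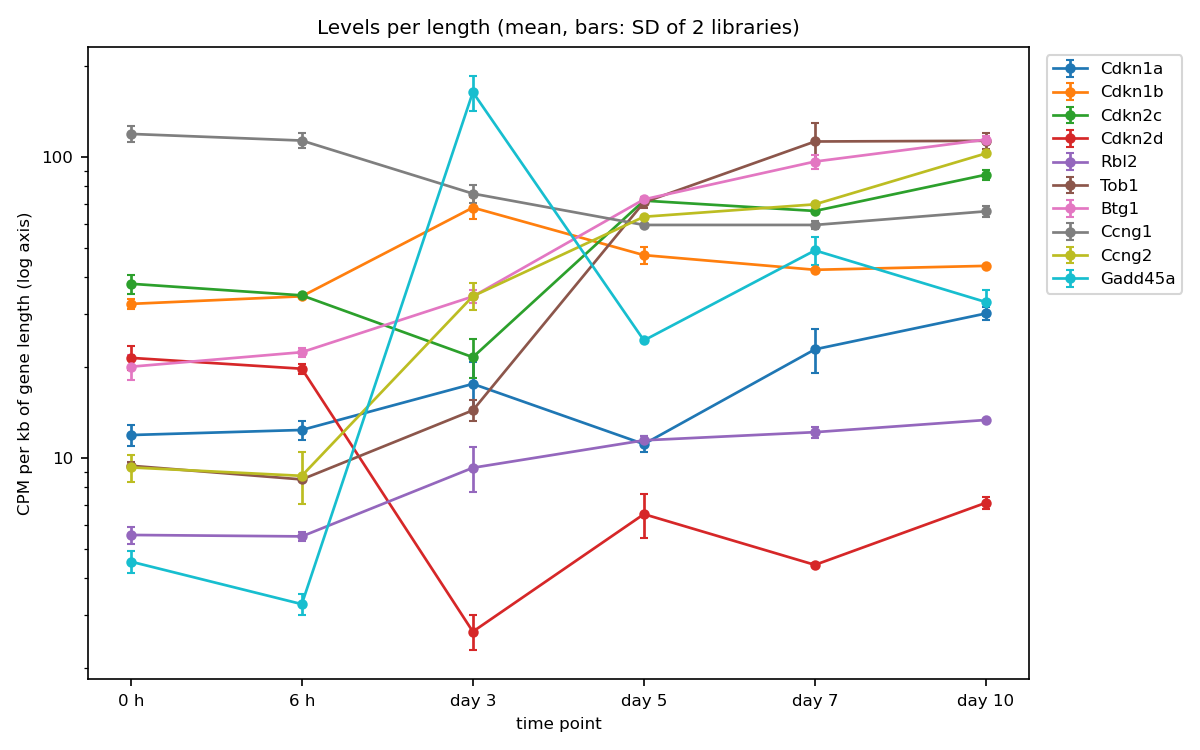
Mean CPM per kb of gene length (log axis) of the 10 genes by time point; bars are the SD of 2 libraries. Ccng1 is highest at 0 h and 6 h, Gadd45a at day 3, and Btg1, Tob1 and Ccng2 at day 10, with Cdkn2d lowest from day 3 on.

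Across the 12 libraries the members paired off both within and across families. These correlations of log2 CPM describe 6 time points with 2 libraries each, which share depth and protocol. Tob1 and Btg1 correlated at r = 0.99, and Ccng2 and Rbl2 also at 0.99. Ccng1 ran against both Ccng2 and Rbl2, at -0.96 each. Gadd45a correlated with Cdkn1b at 0.91 and with Cdkn2d at -0.98, and Cdkn2c and Cdkn2d, though of 1 family, at -0.00. Among 9916 other genes, those most like each member over the 12 libraries were Abcc4 (r = 0.969) and Nectin2 for Cdkn1a, Hid1 (0.986) and Smg6 for Cdkn1b, Irs1 (0.988) and Itpr1 for Cdkn2c, and Ap1s1 (0.982) and Ssr1 for Cdkn2d. For Rbl2 they were Rassf2 (0.993) and Tmem175, for Tob1 Prxl2a (0.998) and Pxmp4, for Btg1 Ganc (0.997) and Slc25a20, for Ccng1 Slc35g1 (0.994) and Nemp1, for Ccng2 Phkb (0.996) and Jkamp, and for Gadd45a Rnf2 (0.994) and Mkrn1. Irs1 encodes an insulin receptor adaptor, Slc25a20 the mitochondrial carnitine carrier, Pxmp4 a peroxisomal membrane protein and Phkb a subunit of phosphorylase kinase.

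The partners of the inhibitors were described from lists of genes, each at day 10 against 0 h and beside the 42.8% of all genes called higher and the 39.9% called lower; a list's most abundant gene is the one with the highest mean CPM over all libraries, not corrected for length. Of the 11 cyclins and kinases that the inhibitors act on, 9 fell, 1 rose and 1 was not called, with a median log2 fold change of -2.03. The largest fall was that of Ccna2, cyclin A of S phase, with 3.55 ± 0.716 CPM at day 10 and 445 ± 3.77 CPM at 0 h (SD, n = 2 each; -6.95, SE 0.219). Ccnd1, cyclin D1 and the list's most abundant gene, averaged 47.4 ± 3.45 CPM at day 10 and 1294 ± 45.7 CPM at 0 h (-4.77, SE 0.138). Cdk4, the kinase that INK4 proteins bind, fell by 1.76 (SE 0.0701), with 126 ± 2.56 CPM at day 10 and 426 ± 5.47 CPM at 0 h. The single riser was Ccnd2, cyclin D2, with 99 counts at day 10 and 0 at 0 h, at least 40.6-fold higher when the 0 h group is set to a floor of 3 counts.

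Of 7 measured genes for the SCF-SKP2 ligase and other factors that turn over p27, 2 rose, 3 fell and 2 were not called, with a median of 0.12 (2 higher, 5 lower and -0.24 with library totals alone). The median was 0.20 without 0 h replicate 1, 0.04 without 0 h replicate 2 and 0.02 without day 10 replicate 1. Skp2, the F-box protein that marks p27 for degradation, averaged 3.06 ± 0.747 CPM at day 10 and 77.7 ± 2.03 CPM at 0 h (-4.68, SE 0.135; SD, n = 2 each). Skp1, its adaptor and the list's most abundant gene, rose by 0.99 (SE 0.0811) and Rnf123, a subunit of the KPC ligase for p27, by 1.18 (SE 0.103). The DREAM list held 11 genes besides Rbl2, for components, their kinase and the related factor Mybl2. Of these, 8 fell, 2 rose and 1 was not called, with a median of -1.27. Mybl2, which takes the place of the pocket protein in cycling cells, fell most (-7.74, SE 0.277), Lin37 rose most (1.04, SE 0.164), the most abundant gene Rbbp4 fell by 0.78 (SE 0.0691), and E2f4, the E2F that pairs with p130, fell by 1.43 (SE 0.127). The p130 gene thus rose while most genes for its complex were lower.

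Of 12 genes for CCR4-NOT and other BTG/Tob partners, 9 fell, 1 rose and 2 were not called, with a median of -0.49 (0 higher, 10 lower and -0.84 with library totals alone). The number that fell was 7 without 0 h replicate 1, day 10 replicate 1 or day 10 replicate 2. Cnot7, the deadenylase that BTG/Tob proteins bind, was the riser (0.38, SE 0.0907; 0.03 and not called with library totals alone), Prmt1, an arginine methyltransferase partner of Btg1, fell most (-2.04, SE 0.111), and the scaffold gene Cnot1, the most abundant, fell by 0.28 (SE 0.0810). Of 20 tested genes for p53, its regulators and other targets, 9 rose, 10 fell and 1 was not called, with a median of -0.21 (7 higher and 10 lower with library totals alone, where the median was -0.56, and a median of -0.12 without 0 h replicate 2). Trp53 itself averaged 12.8 ± 0.509 CPM at day 10 and 95.4 ± 7.84 CPM at 0 h (-2.89, SE 0.120; SD, n = 2 each), the list's largest fall. The DNA repair gene Ddb2 rose most (2.83, SE 0.200), and the most abundant, the kinase gene Plk2, fell by 2.65 (SE 0.0849). Of the p53 targets among the members, Cdkn1a and Gadd45a were above and Ccng1 was below the 0 h level at day 10.

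Of 20 genes for FoxO factors and other FoxO targets, 15 rose, 2 fell and 3 were not called, with a median of 1.91. Txnip, a thioredoxin-binding protein that limits glucose uptake, rose most and was most abundant, with 3417 ± 142 CPM at day 10 and 15.7 ± 1.46 CPM at 0 h (7.76, SE 0.142; SD, n = 2 each). Foxo1 averaged 25.7 ± 1.19 CPM at day 10 and 6.31 ± 0.00662 CPM at 0 h (2.02, SE 0.148), Foxo3 was not called (0.15, edgeR adjusted p = 0.229), and the muscle-atrophy ligase gene Fbxo32 fell most (-1.40, SE 0.138). Each member named above as a FoxO target (Cdkn1b, Ccng2, Rbl2, Btg1 and Gadd45a) had risen by day 10. The Cdkn1b call was subject to the scaling given above. Of the members not named as such, Cdkn1a (log2 fold change 1.34), Cdkn2c (1.20) and Tob1 (3.58) rose too. A rise was thus not particular to the named targets. Cdkn2d (-1.60) and Ccng1 (-0.85) fell. The named targets are not a full list, and whether Cdkn1a, Cdkn2d or other members are also FoxO targets was not tested. Of 8 growth arrest-specific genes, 3 rose, 4 fell and 1 was not called, with a median of 0.29 (-0.06 with library totals alone, 0.15 without 0 h replicate 1 and 0.48 without 0 h replicate 2). The number that rose was 4 without any 1 of the 6 h or day 3 libraries. The risers included Gas6, with 97 counts at day 10 and 3 at 0 h, and the myelin protein gene Pmp22 (3.69, SE 0.199), Gas2l3, an actin and microtubule linker, fell most (-2.60, SE 0.0920), and Gas5, a noncoding RNA gene and the most abundant, fell by 1.56 (SE 0.0794).

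**Figure D5:**
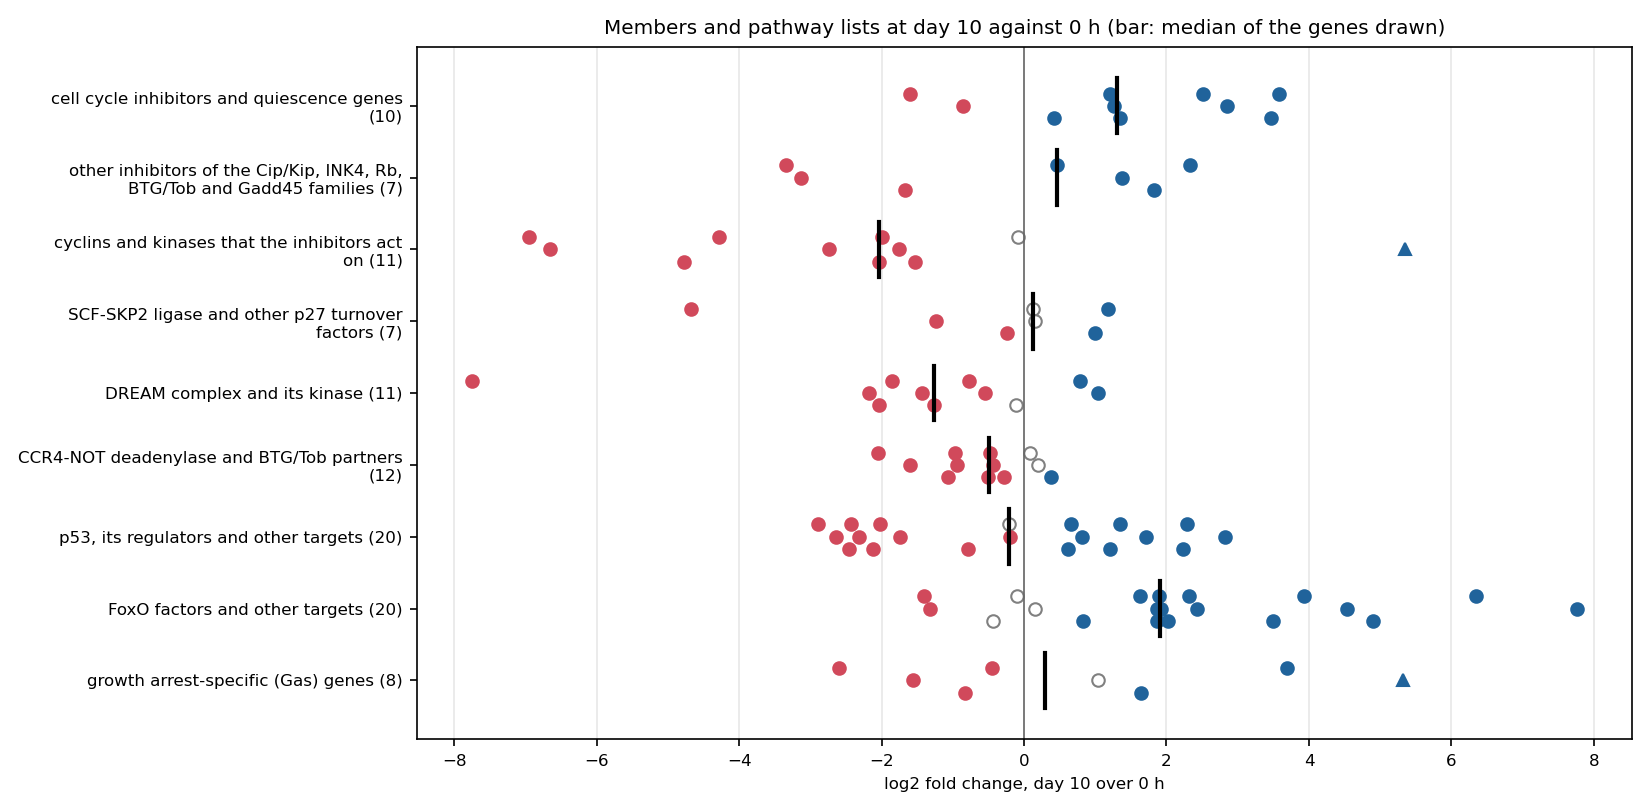
Log2 fold change at day 10 over 0 h for the 10 genes (top row) and the genes of 8 lists; blue points were called higher, red lower and open grey points not called, bars are medians, and triangles are Ccnd2 and Gas6, drawn at their ratio with at least 3 counts at 0 h. The members' median lies at 1.31, the FoxO list's at 1.91, and the cyclins and kinases' at -2.03.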

How the data were processed

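RNA from 12 libraries of MTΔECad cells, 2 at each of 6 time points, was analysed. The authors deposited raw counts per gene and a gene length for the whole series. Per the labels' protocols, libraries came from 200 ng of RNA with a stranded kit. STAR was the aligner and mm10 the build, per the submitters' processing notes. How reads were counted, with which annotation and strand setting, is not given in the sources used here. Of 17090 Entrez identifiers, 17045 were matched to RefSeq symbols.

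Counts were filtered with edgeR 4.0.16's filterByExpr (minimum count 10, minimum total 15), scaled by TMM, and fitted by its robust quasi-likelihood test over all 12 libraries (6 residual degrees of freedom), with Benjamini-Hochberg adjustment over 12740 genes per comparison and a threshold of 0.05 (R 4.3.3). CPM uses TMM-scaled library sizes. CPM per kb divides by the deposited gene length. SE is the log2 fold change over the root of the test statistic. The script was tested on simulated data. Alternatives were DESeq2 1.42.0, other scalings and filters, a replicate block, the 4 libraries compared alone, and each library left out.

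The members and lists were chosen with earlier results of these data known, so list counts are descriptive. All members were named in every comparison. Each list gave its counts, its largest called rise and fall, its most abundant gene and 8 genes chosen by name (Trp53, Foxo1, Foxo3, E2f4, Rb1, Skp2, Cdk4 and Mki67). Rbl1, Btg3 and Gadd45g were added as family relatives after their values were seen. Pmp22 and the untested relatives Cdkn1c, Cdkn2a and Cdkn2b were also named outside these rules. Genes alike were the 2 with the highest Pearson r of log2 CPM among genes reaching a mean of 10 CPM. With 2 libraries a group, p-values rest on the spread pooled over time points.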

Additional observations from a re-analysis of the deposited data

How the results depend on the processing

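Over 20 alternative settings, 1754 of 1800 fold changes of single members kept their direction and their side of the threshold, 19 lost and 4 gained the call, and 23 reversed, none of them a called value. The number of members called stayed within 1.5 times under every setting except day 7 against day 5 with library totals alone, where it was 8 (4 higher, 4 lower) in place of 5. That scaling moved the median of all genes to -0.21 over this step and called 49.0% of them in place of 37.8%. With each library left out in turn, 10 members were called at day 10, day 7 and day 3 against 0 h and between any time points, 9 at day 5 and 0 at 6 h. The counts ranged from 9 to 10 for day 3 against 6 h and for day 5 against day 3, from 4 to 5 for day 7 against day 5, and from 4 to 6 for day 10 against day 7. Reversals at 6 h against 0 h came with a library left out, where the change ranged from -0.0235 to 0.134 for Cdkn1a, from -0.0846 to 0.0526 for Rbl2 and from -0.313 to 0.0907 for Ccng2. At day 7 against day 5, library totals alone gave -0.106 for Rbl2 and -0.0603 for Ccng2. Ccng1, at -0.00 there, was 0.0222 with DESeq2 size factors, 0.0219 with DESeq2, 0.0141 with no filter, 0.00396 with a filter at a mean of 1 CPM, 0.00730 with the 4 libraries compared alone, and between -0.0309 and 0.0302 with a library left out. At day 10 against day 7, library totals alone gave -0.0808 for Cdkn1b and -0.114 for Tob1, and Tob1 was -0.0110 with upper-quartile factors, -0.00897 with no filter and between -0.145 and 0.175 with a library left out. The cause of these shifts was not tested. The replicate block left every count as it was (10 at day 10 against 0 h, 5 at day 7 against day 5, 6 at day 10 against day 7). Same-numbered libraries did not deviate together, with 1 of 15 pairs of time points over r = 0.1 (range -0.091 to 0.193), so the numbers were not treated as pairing. For the 8 lists at day 10 against 0 h, 3 other scalings and each library left out were tried after the data had been seen. In 120 of 120 cases the number of list genes called, both directions together, stayed within 1.5 times. With 82.7% of all genes called in that comparison, these totals had little room to move and do not bear on direction. The medians of the SCF-SKP2 and growth arrest-specific lists changed sign with library totals alone, as given above. With 2 libraries a time point, small steps of Cdkn2d (48 to 471 counts per library) and the 6 h change of Gadd45a are the least precise. The SE reached 0.183 for Gadd45a at 6 h against 0 h and 0.176 for Cdkn2d at day 5 against day 3.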
